A study of Mus musculus with 9 samples.

Results

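The AP-2 adaptor complex and clathrin build the coat of vesicles that bud from the plasma membrane. AP-2 is made of a large alpha chain (Ap2a1 or Ap2a2), a large beta chain (Ap2b1), a medium mu chain (Ap2m1) and a small sigma chain (Ap2s1), and it links membrane lipid and cargo to the clathrin lattice of heavy chains (Cltc) and light chains (Clta or Cltb). Picalm binds clathrin and membrane lipid and helps to recruit small SNARE proteins into the coat. In the testis, clathrin-coated vesicles have been described at the Golgi and the forming acrosome of spermatids and in the membrane recycling of Sertoli cells. The mice compared here lack 1 or both copies of Pfn3, a testis-specific profilin, and the study asked about vesicle transport in their spermatids.

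The 9 genes were found by their symbols among the 38674 genes of the table, and each symbol had 1 row. They were chosen as a group of coat genes, and the choice was guided by the measured difference of Ap2s1 between Het and KO animals, so the group was in part selected on that contrast. That comparison is given here as a description, and no test of these genes is reported for it. RNA came from whole testes, without the tunica albuginea, of male C57BL/6 mice. Of these, 3 were Pfn3+/+ and are called WT, 3 were Pfn3+/- (Het), and the remaining 3 lacked both copies and are called KO (Pfn3-/-). The mutations were made by CRISPR/Cas9 in the single exon of Pfn3 and kept in several deletion lines. The males were sexually mature, at 2 to 6 months of age. Which line they came from, and the age of each animal, was not given in the sources used here. Labels give no treatment in any group, and whole testis holds all germ cell stages together with Sertoli, Leydig and blood cells. The libraries were QuantSeq 3′ RNA-seq, in which each read starts near the polyadenylated end of a transcript, and the values are read counts divided by 1 size factor per animal (normalized counts). Replicates were numbered 1 to 3 in each genotype in the labels, and nothing ties a number to a litter or day.

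Reads on genes numbered 3375546 to 4287335 per animal, and a detection limit of 3 reads was equal to 2.58 to 3.71 normalized counts, a limit for counting error only. Animal WT 1 stood apart from the others, with a Pearson correlation of 0.825 with the mean of the other 8 animals over genes, where the others had 0.861 to 0.934. The lowest of those was Het 1. Among 8322 genes with a median of at least 50 normalized counts, 571 were at least 5-fold below their median in WT 1 and 391 in Het 1, against 67 to 197 in each of the other 7 animals. Results of the coat genes at least 5-fold below their median in WT 1 are therefore given with and without it. Pfn3 itself had 373 to 592 normalized counts in WT, 136 to 339 in Het and 74.7 to 279 in KO animals. All WT animals were above all others, while KO and Het animals overlapped. The table does not say from which part of the gene the reads come, so whether these values check the genotype labels was not tested. The defining markers of spermatids and spermatocytes were present in all animals, 4 of 6 epididymal markers were at 0 in all 9, and the Sertoli cell marker Amh was at 0.

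The 9 coat genes fell into 2 patterns. Ap2a2, Ap2b1, Ap2m1, Cltb and Picalm had similar values in all 9 animals, with the highest value 1.68 to 2.19 times the lowest. Ap2s1, Clta, Cltc and Ap2a1 each had a high level in most animals and a value at least 5-fold below the 9-animal median in 1 to 4 of them, called low here. These 4 of 9 genes (44.4%) compare with 1110 of the 8322 genes with a median of at least 50 (13.3%) that had at least 1 such animal. Without Ap2s1, whose low animals include the Het animals of the contrast used for the choice, 3 of 8 coat genes (37.5%) had one. The animals that were low differed from gene to gene.

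**Figure D1:**
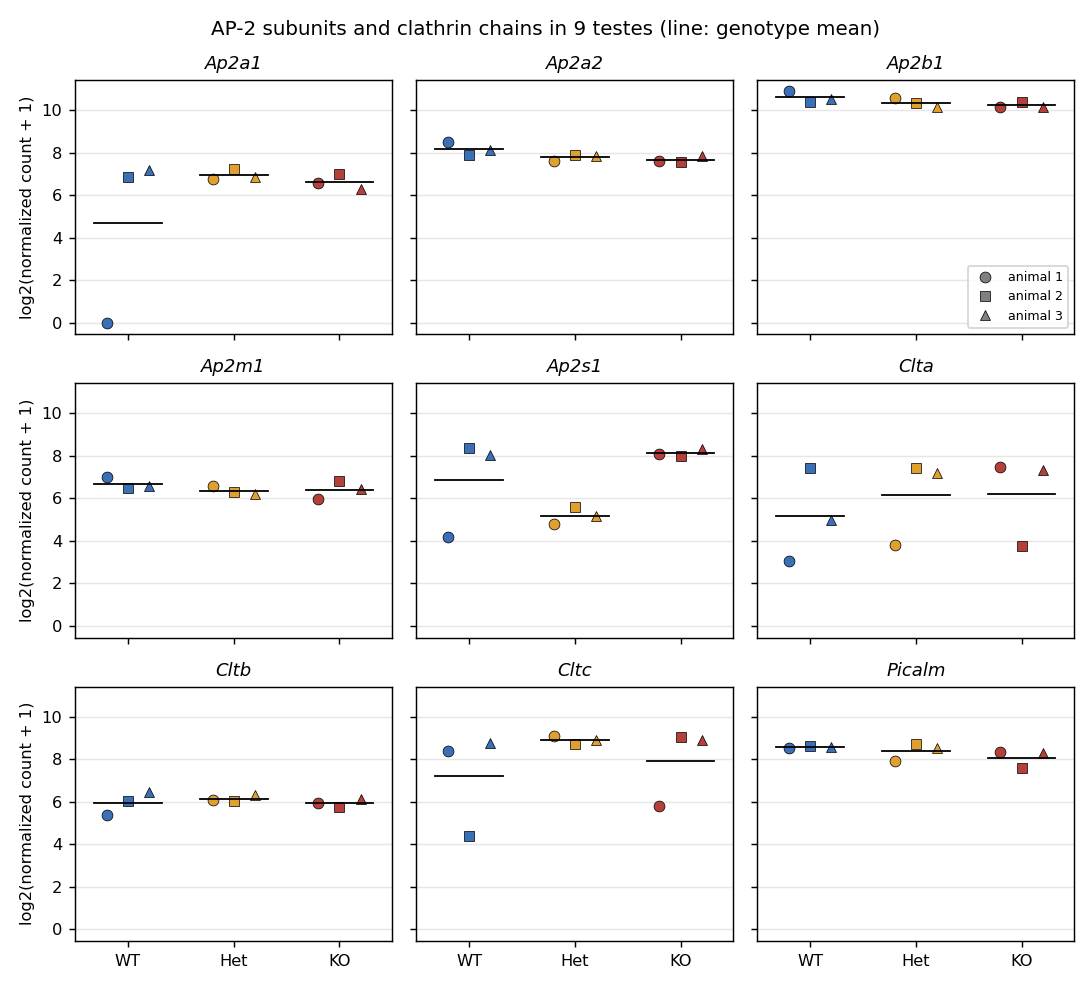
Level of each of the 9 coat genes as log2(normalized count + 1) on the vertical axis, with 1 point per animal, colour and column for genotype, symbol shape for the replicate number and a line at the genotype mean. Ap2s1, Clta, Cltc and Ap2a1 split into high and low animals, whereas the other 5 genes stay within a factor of 2.19.

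Ap2s1, the small sigma subunit that takes part in recognition of dileucine motifs of cargo, had 17.3, 332 and 262 normalized counts in WT animals 1 to 3. The Het animals had 26.5, 47.5 and 34.9, and 270, 257 and 315 were counted in KO. All 3 Het animals were thus low and all 3 KO animals high, without overlap, while WT animals 2 and 3 were at the KO level and WT 1 lay below every Het animal. The low values rest on 14 to 51 reads per animal and the high ones on 266 to 352 reads. The lowest of the 5 high animals was 5.42 times the highest of the 4 low ones, so no animal lay between.

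The mean of Ap2s1 was 280.5 ± 30.1 (SD, n = 3) in KO and 36.3 ± 10.6 (SD, n = 3) in Het animals, a ratio of 7.73, and the difference on the log2(normalized count + 1) scale was 2.95. This contrast was the one by which the group of genes was chosen, so these values describe it. Over the whole table, where a gene was called if its adjusted p was under 0.05 and its log2 fold change beyond 1.5 or -1.5, 8 of 14343 genes (0.0558%) were called between KO and Het, a count from which nothing is read about the coat genes. Ap2s1 was 1 of the 1438 of 14343 genes (10%) whose KO and Het animals did not overlap.

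Ap2s1 against WT depended on WT 1. Het animals against WT gave a log2 fold change of -1.69 (95% interval -4.40 to 1.02) and an adjusted p of 0.78 by limma, and without WT 1 it was -3.03 (-3.81 to -2.24) with an adjusted p of 0.16. Over all alternatives this adjusted p ran from 0.16 to 0.94, so the difference was not called in any of them. KO against WT gave 1.26 (-1.38 to 3.90) and an adjusted p of 0.67, and without WT 1 the value was -0.076 (-0.56 to 0.41). The 2 comparisons share the WT animals, and the Het animals are also those of the contrast used for the choice.

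Clta, a clathrin light chain, had 7.43, 174 and 30.9 normalized counts in WT, 13.2, 169 and 145 in Het and 180, 12.6 and 162 in KO animals. A low animal was present in each genotype: WT 1, Het 1 and KO 2 had 6 to 14 reads, and WT 3, with 32 reads, lay just above that limit. The remaining 5 animals had 145 to 180 normalized counts. The log2 fold change was 1.03 (-2.42 to 4.47) in KO and 0.97 (-2.43 to 4.37) in Het against WT, and without WT 1 these became -0.020 and -0.077.

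Cltb, the other light chain, had 40.9, 64.6 and 87.9 normalized counts in WT, 66.1, 64.3 and 78.3 in Het and 60.1, 53.2 and 68.8 in KO animals. No animal was low in Cltb, and the 3 genotypes overlapped. As a share of the 3′ reads of both light chains, which are counted at transcript ends and are not scaled by length, Clta made up 64.9% to 74.9% in 5 animals. In WT 1, Het 1, KO 2 and WT 3 it was 15.4%, 16.7%, 19.1% and 26.02%. The light chain with more reads was therefore Clta in 5 animals and Cltb in 4, without separating the genotypes.

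Cltc, the heavy chain that forms the legs of the clathrin triskelion, had 339, 20.3 and 438 normalized counts in WT, 547, 424 and 486 in Het and 54.1, 525 and 478 in KO animals. WT 2 and KO 1 were low, with 21 and 63 reads, and the other 7 animals had 274 to 579 reads. Neither of these 2 animals was low in Ap2s1, Clta or Ap2a1. The log2 fold change of Cltc was 0.71 (-2.72 to 4.14) in KO and 1.72 (-1.06 to 4.50) in Het against WT, and without WT 2 these became -0.69 and 0.32.

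Low values of these genes were unevenly spread over the animals. WT 1 was low in 3 of the 9 coat genes (Ap2a1, Ap2s1 and Clta) and Het 1 in 2 (Ap2s1 and Clta), the same 2 animals that had most low genes in the whole table. WT 2, Het 2, Het 3, KO 1 and KO 2 were each low in 1 gene, and WT 3 and KO 3 in none. Whether the state of these libraries had a part in the low values was not tested. Neighbouring genes are given as values only, and a shared pattern with them was not tested. Ccin, on the left of Clta, had 411 to 759 normalized counts in all 9 animals, and Gne, on its right, had 3.86 to 13.7. Dhx40, on the right of Cltc, had 455 to 785. Ptrh2, on the left of Cltc, had 12.4 in WT 1 and 68.8 to 113 in the others, with 113 in WT 2 and 91.0 in KO 1. Slc1a5, on the right of Ap2s1, had 29.9 to 53.9, and Ceacam9, on its left, had 0 in all 9.

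**Figure D2:**
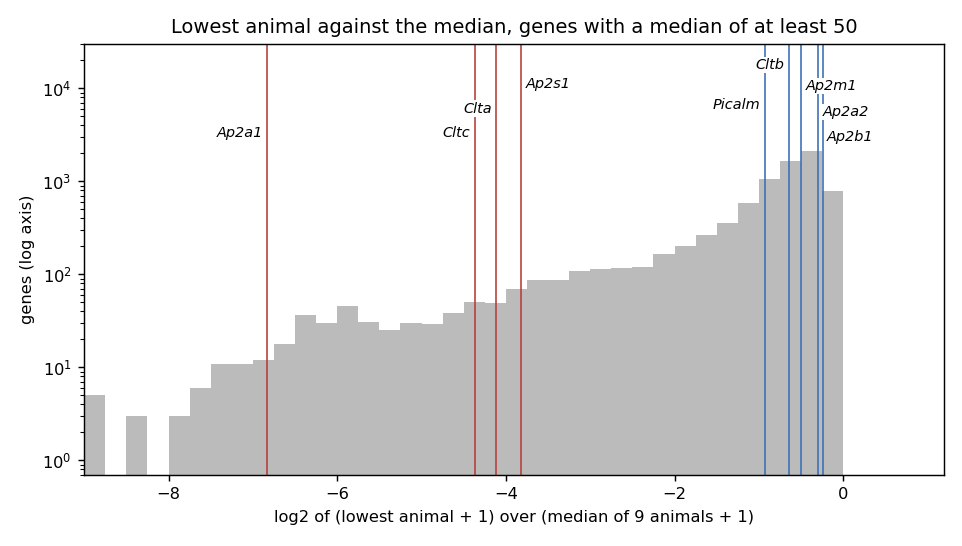
Histogram over the 8322 genes with a median of at least 50 normalized counts: the horizontal axis is the log2 ratio of the lowest animal to the median of the 9 animals (1 added to both), and the vertical axis is the number of genes on a log scale. Red lines mark Ap2a1, Cltc, Clta and Ap2s1, at -6.83 to -3.82, and blue lines the other 5 coat genes, at -0.93 to -0.24.

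Reads of these libraries start near transcript ends, but which end was used in each gene is not known from gene counts. The last 30 bases of 1 annotated transcript are shown for the 4 genes with low animals. For comparison, those of Cltb, which had none, are added. Sequences are from the longest coding GENCODE M21 transcript of each gene (GRCm38, written 5′ to 3′ on the gene's strand). In these genes it reaches the annotated 3′ end of the gene. Capitals mark the polyadenylation signal AATAAA or its variant ATTAAA.
Ap2s1: gcccccAATAAAcctgtggtcctgcctggc
Clta: tgagAATAAAtttctgtttcaaacaatgta
Cltc: gacttgaAATAAAggtatattttttaaaat
Ap2a1: AATAAAcagagagacgctaatattacccca
Cltb: atggataccagtattactggATTAAAgccc
They lie at chr7:16749265-16749294 on the plus strand (Ap2s1), chr4:44032817-44032846 on the plus strand (Clta), chr11:86694351-86694380 on the minus strand (Cltc), chr7:44900373-44900402 on the minus strand (Ap2a1) and chr13:54592401-54592430 on the minus strand (Cltb), each in the last exon. AATAAA stood in this window in 7 of the 9 coat genes, ATTAAA in Cltb and neither in Picalm. The ends of the longest coding transcripts of 21866 coding genes were searched on the transcript's strand only, with AATAAA counted first where a window held both. AATAAA was in 51.38% and ATTAAA in 11.69% of them. All 4 genes with low animals carried AATAAA, as did Ap2a2, Ap2b1 and Ap2m1, which had no low animal, so these letters did not separate the 2 patterns. No stretch of 50 bases in the annotated transcripts of Ap2s1, Clta, Cltb or Picalm occurred in those of another gene. Of the stretches of Cltc, 1.03% did.

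Ap2a1, one of the alternative alpha subunits, had 0, 113 and 145 normalized counts in WT, 109, 149 and 114 in Het and 94.5, 127 and 76.9 in KO animals. The other 8 animals had 86 to 160 reads each, whereas WT 1 had none. Ap2a1 lies on the minus strand of chromosome 7 from 44900373 to 44929496, and the last 2259 bases of Fuz, a planar cell polarity gene on the plus strand from 44896079 to 44902631, overlap its 3′ end. Fuz had 193 normalized counts (156 reads) in WT 1 and 0 to 17.4 in the other 8 animals, the reverse of Ap2a1. Of the 4525 stretches of 50 bases in the Ap2a1 transcripts, 624 occur in the Fuz transcripts as the reverse complement. Whether the authors' counting used strand is not given in the sources used here, and without strand reads from the overlap cannot be told apart.

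Summed, Ap2a1 and Fuz had 193, 124 and 154 normalized counts in WT, 109, 159 and 121 in Het and 97.1, 144 and 83.1 in KO animals, with no animal low. The log2 fold change of Ap2a1 in KO against WT was 1.95 (-2.64 to 6.53) for the gene alone and -0.55 (-1.26 to 0.16) for the sum. For Het against WT it was 2.28 (-2.34 to 6.90) alone and -0.27 (-0.91 to 0.37) summed. The sign of both values thus rested on WT 1, and neither version was called. No annotated gene overlaps Ap2s1, Clta or Cltc, the other genes with low animals.

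**Figure D3:**
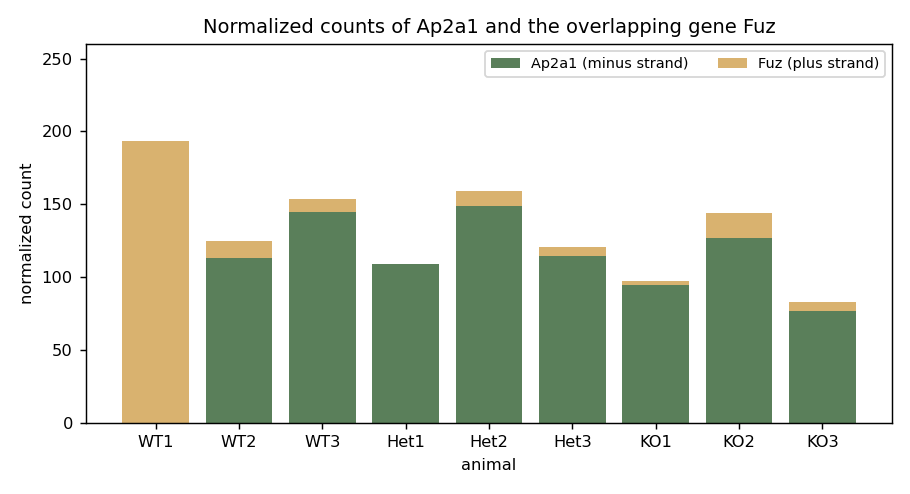
Stacked bars of the normalized counts of Ap2a1 (green) and the overlapping gene Fuz (yellow), 1 bar per animal on the horizontal axis. In WT 1 all 193 counts were listed under Fuz and none under Ap2a1, while in the other 8 animals Fuz had 0 to 17.4.

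Ap2a2, the other alpha subunit, had 355, 236 and 275 normalized counts in WT, 195, 237 and 226 in Het and 193, 187 and 230 in KO animals. Every KO animal lay below every WT animal, and the Het animals overlapped WT. The mean was 289 ± 60.7 (SD, n = 3) in WT and 203 ± 23.2 (SD, n = 3) in KO. The log2 fold change was -0.49 (-1.04 to 0.05), with an adjusted p of 0.61 by limma. By share of 3′ reads, Ap2a2 made up 59.6% to 74.9% of both alpha subunits in 8 animals and 100% in WT 1, where Ap2a1 had no reads, and the genotypes overlapped.

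Picalm had 366, 396 and 379 normalized counts in WT, 244, 420 and 375 in Het and 323, 192 and 308 in KO animals. Here too the KO animals lay below all WT animals, and Het 1 fell within the KO range. The mean was 380.5 ± 14.5 (SD, n = 3) in WT and 274 ± 72.0 (SD, n = 3) in KO, with a log2 fold change of -0.51 (-1.11 to 0.10) and an adjusted p of 0.61. For Ap2a2 and Picalm together, 2 of the 9 coat genes (22.2%) had KO and WT animals without overlap, against 19.9% of all 14223 genes tested (2829 genes), so the share among coat genes was near that of all genes.

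Summed levels of some cell type marker lists also lay apart in KO and WT testes, which was not tested. The paper reported no significant difference between genotypes for its own marker genes, with transition proteins and protamines among those shown. The summed level of the 4 elongating spermatid markers (all 4 present) lay between 233289 and 249362 normalized counts in the WT testes and between 123388 and 199672 in the KO testes. The 6 round spermatid markers summed to 4339 to 5030 in WT and 2196 to 3713 in KO, and the 7 spermatocyte markers to 5223 to 6544 in WT and 7858 to 8540 in KO. For spermatogonia, Sertoli cells, Leydig cells, erythrocytes and macrophages, the KO and WT sums overlapped. Those of Sertoli cells, for example, were 2788 to 3436 in WT and 2249 to 4443 in KO. The part of cell composition in the lower Ap2a2 and Picalm values was not tested. In whole testis, fewer cells of a type and less RNA per cell cannot be told apart.

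Ap2b1, the beta subunit that binds clathrin, had 1883, 1325 and 1478 normalized counts in WT, 1530, 1292 and 1119 in Het and 1123, 1330 and 1122 in KO animals. Groups overlapped, by the small margin between KO 2 at 1330 and WT 2 at 1325 in the case of KO and WT. The log2 fold change was -0.38 (-0.85 to 0.09) in KO and -0.25 (-0.75 to 0.26) in Het against WT. Without 1 animal at a time it ran from -0.49 to -0.24 in KO and from -0.36 to -0.10 in Het. WT 1 had the highest value of all animals.

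Ap2m1, the mu subunit that recognises tyrosine motifs of cargo, had 126, 87.8 and 94.6 normalized counts in WT, 93.5, 77.3 and 73.0 in Het and 61.8, 112 and 86.7 in KO animals. All genotypes overlapped, with a log2 fold change of -0.26 (-0.98 to 0.45) in KO and -0.33 (-0.91 to 0.25) in Het against WT. Of its stretches of 50 bases, 28.8% occur in transcripts of other genes, most of them (1097 of 1228) in Gm13509. That gene is not among the rows of the table, from which the authors removed pseudogenes. The level of Ap2m1 may therefore be uncertain. The stretches were counted over whole transcripts, and whether they affect its 3′ reads was not tested.

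Across the comparisons with WT, none of the 9 coat genes, all of which passed the filter on low values, was called in KO or in Het animals by limma, edgeR or DESeq2. Between KO and WT, 5 of 14223 genes (0.0352%) were called by limma. Between Het and WT, 0 of 14216 (0%) were called by limma, 0 by edgeR and 31 by DESeq2. At an unadjusted p under 0.05, 0 coat genes passed in KO against WT, where 1148 genes (8.07%) did. Ap2a2 alone passed with all 9 animals in 1 fit, beside 9.03% of all genes, and without WT 2, beside 6.75%. In Het against WT, 0 coat genes passed and 475 genes (3.34%) did. Ap2s1 alone passed by edgeR, beside 2.88% of all genes, by DESeq2, beside 2.91%, and by limma without WT 1, beside 2.69%. Its Het values are those of the contrast used for the choice, so nothing is read from these passes. The lowest adjusted p of a coat gene was 0.61 in KO and 0.78 in Het against WT. Their median log2 fold change was -0.03 in KO and -0.17 in Het animals, beside 0.02 and 0.01 over all genes tested, with 4 of 9 above and 5 of 9 below 0 in each. In Het against WT, 0 of the 9 coat genes had groups without overlap, where 1884 of 14216 genes (13.3%) did.

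These comparisons leave wide limits for the genes with low animals. The 95% intervals of Ap2a1, Ap2s1, Clta and Cltc spanned more than 5 log2 units in both comparisons, whereas those of the other 5 genes lay between -1.11 and 0.96. For these 5 genes, the intervals reached neither 1.5 nor -1.5 on the log2 scale.

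**Figure D4:**
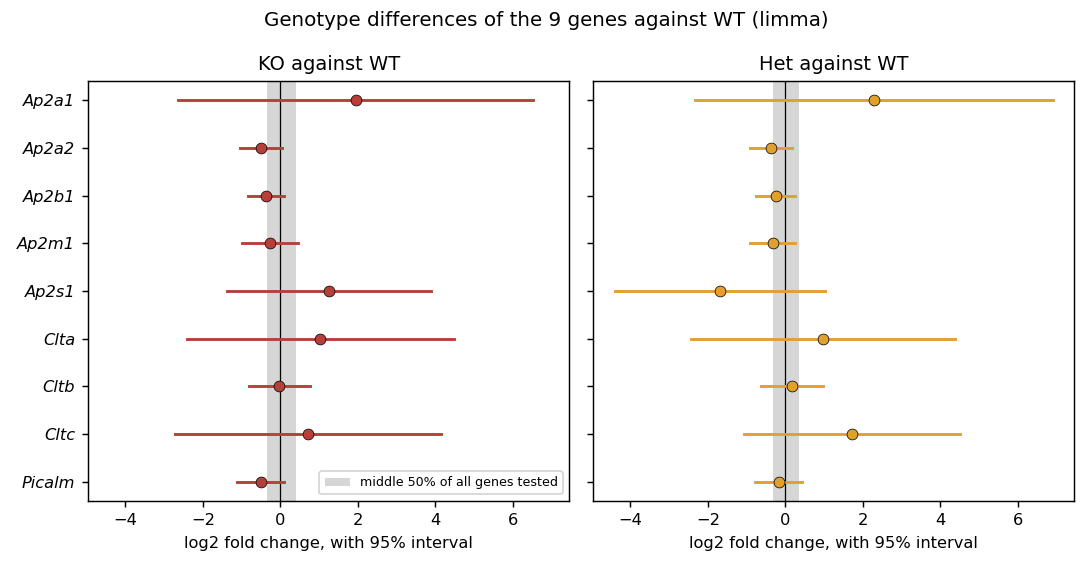
Log2 fold changes of the 9 coat genes with their 95% intervals by limma (horizontal axis, points and lines) in KO against WT on the left and Het against WT on the right, with the middle 50% of all genes tested in grey. Every interval includes 0, and those of Ap2a1, Ap2s1, Clta and Cltc are the widest.

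Between KO and Het, given as values only, the differences of the coat genes other than Ap2s1 on the log2(normalized count + 1) scale ran from -1.01 for Cltc, where KO 1 was low, to 0.06 for Ap2m1 and Clta. Ap2a1 differed by -0.33, Picalm by -0.33, Cltb by -0.20, Ap2b1 by -0.13 and Ap2a2 by -0.11. In none of these genes did the KO and Het animals separate.

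The genes with a pattern most like that of Ap2s1 were sought over log2(normalized count + 1) in the 9 animals, which all share these libraries, among 14864 genes. The 5 highest Pearson correlations were those of the uncharacterised 4933405L10Rik (0.97), the zinc finger gene Zfp560 (0.97), Map1lc3b, which encodes the autophagosome protein LC3B (0.97), Nr0b1, which encodes the nuclear receptor DAX1 (0.96), and Timm17b, a subunit of the inner mitochondrial membrane translocase (0.95). Genes with a correlation of at least 0.9 numbered 12. These are the extremes of 14864 correlations over 9 animals, which include the Het and KO values of the contrast used for the choice. They were not tested, and no link to Ap2s1 is read from them. A high correlation did not need a change of like size: Zfp560 had only 100 to 137 normalized counts.

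Map1lc3b had 81.7, 397 and 346 normalized counts in WT, 119, 136 and 91.0 in Het and 346, 237 and 312 in KO animals. Timm17b had 8.67, 111 and 104 in WT, 8.50, 5.59 and 5.29 in Het and 81.6, 92.9 and 101 in KO animals. WT 1 and the 3 Het animals were the 4 lowest of the 9 in both genes, which were picked for their likeness to Ap2s1 over the same animals. The lowest correlations belonged to Arhgef40 (-0.98), Atf1 (-0.95) and Kremen1 (-0.94), and Atf1, a CREB family transcription factor, had 318 to 350 normalized counts in those 4 animals and 221 to 254 in the other 5. No coat gene was close to Ap2s1: their correlations with it ran from -0.50 for Ap2b1 to 0.51 for Ap2a1.

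Around the AP-2 coat, 8 further lists of vesicle genes were examined, with 93 genes tested: the AP-1 and the AP-3 to AP-5 adaptors, nucleators and cargo adaptors of endocytosis, scission and uncoating factors, kinases of AP-2 and of the lipid PIP2, adaptors of Golgi and endosomes, early endosome genes around Rab5, and cargo receptors. None of the 93 was called in KO or in Het against WT. At an unadjusted p under 0.05, 3 of them (3.23%) passed in KO against WT, beside 8.07% of all genes, and 2 (2.15%) in Het against WT, beside 3.34%. The median log2 fold change of the 93 genes was 0.21 in KO and 0.10 in Het animals.

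The 3 genes in KO against WT were Ap3d1, the delta subunit of the AP-3 adaptor, with a log2 fold change of -0.74 (SE 0.26), Sh3glb1 (endophilin B1), with -0.47 (SE 0.18), and the early nucleator Fcho2, with 1.18 (SE 0.47), each at an adjusted p of 0.61. Normalized counts of Ap3d1 were 784 to 1379 in the WT and 548 to 618 in the KO testes, without overlap. The value of 1379 was that of WT 1, and the fold change without WT 1 is not given here. The 2 genes in Het against WT were the cargo adaptors Dab2, with 1.11 (SE 0.35), and Numb, with 0.82 (SE 0.29), both at an adjusted p of 0.78. Normalized counts of Dab2 were 12.4 to 25.1 in the WT and 32.8 to 43.5 in the Het testes. These genes were not particular to 1 genotype. In KO against WT, Dab2 had 0.82 (SE 0.34) and Numb 0.74 (SE 0.34), and Fcho2 had 1.23 (SE 0.52) in Het against WT. Both comparisons share the WT animals.

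In the other lists, the gene with the smallest p in KO against WT was Ap1m1, the AP-1 mu subunit (-0.47, SE 0.21), among AP-1 subunits and Bmp2k, a kinase related to that of AP-2 (0.58, SE 0.32), among kinases. It was Tom1, an endosomal adaptor (-0.45, SE 0.21), for Golgi and endosomes. Appl2, a Rab5 effector (0.48, SE 0.27), led the early endosome genes and M6pr, the cation-dependent mannose 6-phosphate receptor (0.61, SE 0.40), the cargo receptors. None had an adjusted p under 0.61. By list, the median log2 fold change in KO against WT ran from -0.07 for adaptors of Golgi and endosomes to 0.57 for the 7 kinases. Of these kinases, 6 were above 0 and none passed an unadjusted p under 0.05. Their median is the value of Pip5k1b, a gene with only 3.86 to 22.2 normalized counts. Aak1 (1.32) had 6.75 in WT 2 and 93.6 to 157 in the other animals. Stk16 (0.84) had 293 in KO 3 and 23.2 to 68.0 in the others.

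**Figure D5:**
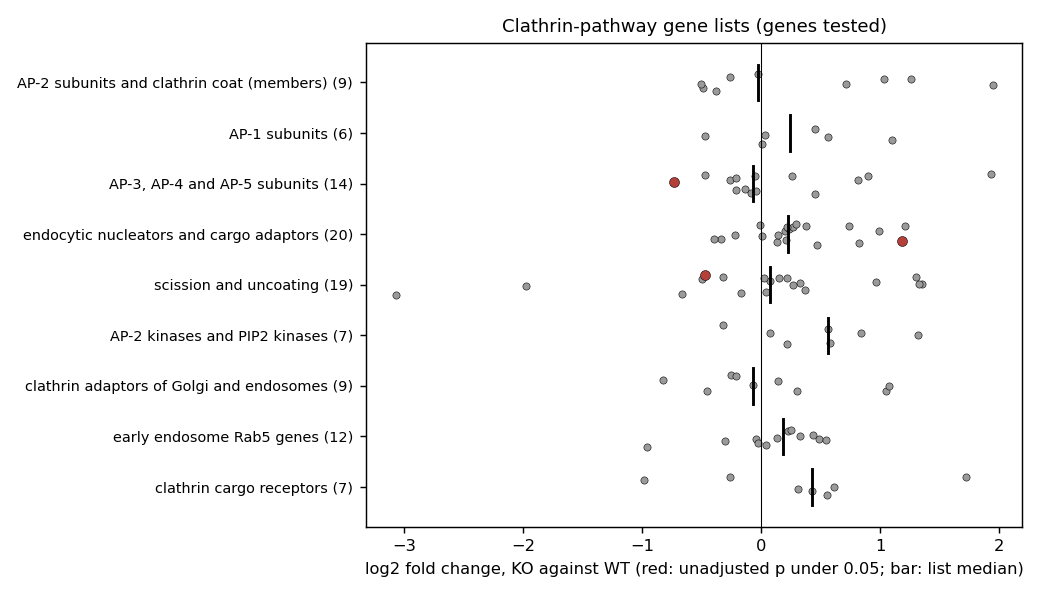
Log2 fold change in KO against WT (horizontal axis) of each gene tested, in 1 row per list with the number of genes in brackets, a bar at the list's median and red points for an unadjusted p under 0.05. The red points are Ap3d1, Sh3glb1 and Fcho2, and no gene in any list was called.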

How the data were processed

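Testis RNA of 9 mice was sequenced from 3′ ends. The authors trimmed reads with Trim Galore 0.4.5, aligned them with HISAT2 2.1 to GRCm38, counted genes with StringTie 1.3.3 and left out pseudogenes. The deposited values (unit signal) are counts per gene over 1 factor for each animal. This follows from the table itself, where 100% of nonzero values in each animal are whole multiples of 1 read (tolerance 0.01 of a read), so reads could be recovered, at 3375546 to 4287335 per animal.

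Groups follow the labels. Each pair of genotypes was fitted over its 6 animals by limma 3.58.1, with trended eBayes, on log2(value + 1), which understates changes of low genes, for genes with at least 10 in at least 3 animals, with Benjamini-Hochberg adjustment over all genes. The cutoffs are those of the study's methods. The count tests of edgeR 4.0.16 and DESeq2 1.42.0 on recovered reads were alternatives, and all were tested on simulated data. P-values set the difference between genotypes against the spread between animals, which limma moderates with a trend over all genes. The members, lists and tests were chosen with earlier results of these data known. Named genes were all 9 coat genes, any gene called and the gene of smallest p in KO against WT in each list, and the 5 highest and 3 lowest correlations with Ap2s1. Fuz, Dab2, Numb, Gm13509 and the neighbouring genes were named after their values or positions were seen. Of the marker lists, those of spermatogonia, Leydig cells, erythrocytes and macrophages had summed levels of 231 to 301, 1436 to 3542, 853 to 1391 and 189 to 341 normalized counts, and Sertoli cells 1933 to 4443. Transcripts and positions come from GENCODE M21. Protein sequences were not used here.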

Additional observations from a re-analysis of the deposited data

How the results depend on the processing

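No coat gene was called against WT under any of the alternatives, with adjusted p of at least 0.54 in KO and 0.16 in Het. The log2 fold changes kept their sign in 136 of 144 cases in KO and 139 of 144 in Het against WT. Many of these cases could not change sign. No filter, all animals in 1 fit, the replicate number as a block and summed rows of 1 symbol left every coat gene's value unchanged. Summing Ap2a1 with Fuz changed the value of Ap2a1 only. The kept signs in the unchanged cases were fixed in advance and are no check. The sign turned for Ap2a1 when summed with Fuz (-0.55 in KO and -0.27 in Het, added after seeing the data). Without 1 animal, values ran as follows in KO against WT: Ap2a1 -0.39 to 3.20, Ap2s1 -0.076 to 2.02 and Clta -0.020 to 2.25 (lowest without WT 1), Cltc -0.69 to 1.77 (lowest without WT 2), and Cltb -0.32 to 0.23 (above 0 without KO 2, WT 2 or WT 3). In Het against WT they were Ap2a1 -0.058 to 3.54, Clta -0.077 to 2.13 and Cltb -0.12 to 0.42 (lowest without WT 1), Cltc 0.32 to 2.51 (lowest without WT 2) and Picalm -0.33 to 0.061 (highest without Het 1). The cause was not tested. The difference of Ap2s1 between KO and Het was 2.75 to 3.16 without any 1 animal. This is a description only, because the group was chosen by that contrast.

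Over all genes, DESeq2 called 100 in KO against WT, 31 in Het against WT and 38 in KO against Het, where limma called 5, 0 and 8. All 9 animals in 1 fit gave 3, 3 and 4. Het against WT also gave 3 without the filter, 2 with a pseudocount of 5 and 1 with TMM factors. Without 1 animal, the counts ran from 0 to 49 in KO against WT (highest without WT 1), 0 to 3 in Het against WT (highest without Het 2) and 0 to 39 in KO against Het (highest without Het 2). Deviations of same-numbered animals from their genotype means had correlations of -0.14 to 0.19. These are weak, but they cannot settle whether the numbers pair animals by litter or day. With the replicate number as a block, 0 genes were called in KO against WT, 0 in Het against WT and 0 in KO against Het, with 794, 322 and 403 at an unadjusted p under 0.05. The low values of Clta rest on 6 to 14 reads.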
